A study of Mus musculus with 52 samples.

Results

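Genes of MHC class II antigen presentation were followed in a mouse tumor experiment, with 9 members: Ciita, H2-Aa, H2-Ab1, H2-Eb1, Cd74, H2-DMa, H2-DMb1, H2-Oa and H2-Ob. They were named by gene symbol, with earlier results of these data known, and all 9 of the 9 symbols were found among the 57010 genes of the table. RNA was sequenced from hCD40tg mice, which carry human CD40 as a transgene, after inoculation with MC38-CEACAM5 tumors, the colon carcinoma line MC38 made to carry the human antigen CEACAM5. Every group, vehicle included, shares the transgene and the tumor. The treatments were vehicle, CD40 mAb (an antibody to CD40) and ATOR-4066 (a bispecific antibody that binds CD40 and CEACAM5), and the sampled materials were blood, lymph nodes, whole tumor, and sorted CD45+Ly6G- cells, which are tumor leukocytes without neutrophils. Blood had 5 vehicle, 5 CD40 mAb and 4 ATOR-4066 libraries. Lymph had 4, 4 and 5 in that order, tumor 4, 5 and 4, and sorted cells 4, 3 and 3. The labels give no age, sex, mouse strain, dose or sampling time. Also not stated is the promoter of the transgene, or whether a library is 1 mouse or a pool. P-values therefore measure the spread between these libraries.

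MHC class II molecules are pairs of an alpha and a beta chain that carry peptides from engulfed proteins to the cell surface, where CD4+ T cells read them. In mice H2-Aa and H2-Ab1 encode the 2 chains of the H2-A molecule and H2-Eb1 the beta chain of H2-E. Cd74, the invariant chain, holds new class II molecules in the endoplasmic reticulum and guides them to endosomes, where H2-DM (H2-DMa with H2-DMb1 or H2-DMb2) exchanges the invariant chain fragment for peptide. H2-O (H2-Oa with H2-Ob) binds H2-DM and restrains it, mainly in B cells and some dendritic cells. Ciita encodes the class II transactivator, which does not bind DNA itself but docks on RFX, CREB and NF-Y proteins sitting on the X and Y boxes of these promoters. CD40, the receptor targeted by both antibodies, is a co-stimulatory receptor of B cells, dendritic cells and macrophages.

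Of the members, 7 lie within 224 kb of chromosome 17 (GRCm38), from 34092340 at the start of H2-Oa to 34316674 at the end of H2-Eb1. RefSeq promoter windows of 300 bases (250 before to 50 after the start, GRCm38.p6) were available for 6 of the 9 members. Of these 6, 5 held the X box core GNAAC followed by the Y box core TGATTGG on the gene's strand, with the motif starts 20 to 50 bases apart. These 5 stretches are shown, 5′ to 3′ on the gene's strand and with both cores in capitals, because boxes of this kind are where Ciita is known to act and because they place the classical chains beside the H2-DM and H2-O genes whose levels differ below.
H2-Aa chr17:34287847-34287924, minus strand: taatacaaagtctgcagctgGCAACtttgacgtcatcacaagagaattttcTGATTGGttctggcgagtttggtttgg
H2-Eb1 chr17:34305756-34305832, plus strand: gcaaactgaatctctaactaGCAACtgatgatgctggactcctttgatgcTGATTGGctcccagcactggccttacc
H2-DMb1 chr17:34153077-34153154, plus strand: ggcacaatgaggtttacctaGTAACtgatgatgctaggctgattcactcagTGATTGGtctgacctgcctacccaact
H2-Oa chr17:34092283-34092360, plus strand: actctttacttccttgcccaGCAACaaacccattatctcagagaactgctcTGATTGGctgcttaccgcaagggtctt
H2-Ob chr17:34238798-34238872, plus strand: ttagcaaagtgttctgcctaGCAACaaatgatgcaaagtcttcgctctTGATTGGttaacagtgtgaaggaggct
The distance from the start of GNAAC to the start of TGATTGG was 31 bases in H2-Aa, H2-DMb1 and H2-Oa, 30 in H2-Eb1 and 28 in H2-Ob. Among 32851 windows of the same length, 84.8% held GNAAC and 7.82% held TGATTGG on either strand. The pair was held by 0.852% on either strand and by 0.414% on the strand of the gene. Neither H2-DMa window held TGATTGG. Both motifs and the spacing were picked after the sequences had been read, so the matches are a description and not evidence of binding.

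Depth was 33.5 to 44.1 M counts per library in blood, 46.3 to 138.5 in lymph, 30.2 to 47.4 in sorted cells and 47.4 to 64.2 in tumor. Haemoglobin genes took 69.8 to 88.2% of the counts in blood. No member had fewer than 30 counts in any of the 50 libraries used, and all 9 passed the low-count filter in every tissue. Marker sums are given in CPM (counts relative to the scaled library total), scaled within each tissue, so they do not compare one tissue with another. Lymph libraries held B cell markers at a summed 2880 to 5250 CPM. The 8 neutrophil markers summed to 168 to 271 CPM in sorted vehicle libraries. Blood under vehicle had 109 to 229 on its own scale. Most of the sorted sum was Csf3r (158 to 259 CPM), which is also on the monocyte list, while S100a8 was at 18.7 CPM or lower in every sorted library. Summed epithelial markers were 9.79 to 33.9 CPM in tumor under vehicle, 3.92 to 37.8 under ATOR-4066 and 4.56 to 325 under CD40 mAb. In lymph under vehicle they were 129 to 368, on the scale of that tissue.

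Of the 52 libraries, 2 were left out, as set with the gene list. Their marker levels go against their labels. The lymph vehicle library numbered 3 had Cd79a, a B cell receptor component, at 0.292 CPM, and H2-Ob at 1.04 and Ciita at 22.5 CPM. The tumor ATOR-4066 library numbered 3 had Cd79a at 341 CPM, H2-Ob at 116 and Ciita at 111 CPM. Putting both back gave 9 of 9 positive members and a median of 0.48 (log2) for ATOR-4066 against vehicle in tumor, against 0 of 9 and -0.22 without them. In lymph it gave medians of 0.21 for ATOR-4066 and 0.14 for CD40 mAb. No member was called with them in any of these 3 comparisons.

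Of the libraries used, 4 stood apart from their groups and recur below. Sorted ATOR-4066 replicate 9 had B cell markers at a summed 747 CPM, where replicates 6 and 10 had 192 and 174, and macrophage markers at 766 CPM, where those had 3850 and 4440. Blood CD40 mAb replicate 1 had B cell markers at 378 CPM, against 147 to 216 in the other CD40 mAb libraries. Tumor vehicle replicate 1 had B cell markers at 215 CPM, against 64.6 to 65.8 in the other vehicle tumors. Tumor CD40 mAb replicate 5 had macrophage markers at 18000 CPM and T cell markers at 1390, against 3190 to 6680 and 44.8 to 171 in the other CD40 mAb tumors.

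Outside the chromosome 17 cluster, Ciita is on chromosome 16 from 10480059 to 10528418 and Cd74 on chromosome 18 from 60803848 to 60812652 (GRCm38).

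The resting pattern was read from the vehicle libraries on one scale for all tissues, as CPM per kb of transcript, which allows genes to be compared; the transcript chosen for each gene sets these levels. Cd74 was the most abundant member in all 4 tissues, at 3160 ± 426 CPM per kb in sorted cells (SD, n = 4), 721 ± 240 in tumor (n = 4), 1960 ± 212 in lymph (n = 4) and 1770 ± 161 in blood (n = 5). H2-Ab1, H2-Aa and H2-Eb1 followed in every tissue. In sorted cells they stood at 1610 ± 224, 1350 ± 273 and 775 ± 153 CPM per kb. H2-Ab1 and H2-Aa overlapped in their spread between libraries in sorted cells, tumor and lymph. In lymph H2-Aa was at 962 ± 88.0 (868 to 1080) and H2-Ab1 at 804 ± 67.2 (727 to 891). Within each vehicle library, the ratio of H2-Ab1 to H2-Aa was 1.12 to 1.32 in sorted cells and 1.0 to 1.1 in tumor. In lymph it was 0.823 to 0.856.

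The peptide exchange genes came next, and their order turned over between tissues. In sorted cells H2-DMb1 was at 163 ± 14.3 and H2-DMa at 116 ± 12.7 CPM per kb, followed by Ciita at 23.4 ± 4.28, H2-Oa at 6.08 ± 1.36 and H2-Ob at 3.10 ± 0.58. In lymph H2-Ob stood at 63.2 ± 8.49 and H2-DMa at 59.8 ± 4.53, within each other's spread, followed by H2-Oa at 51.1 ± 6.89, H2-DMb1 at 38.3 ± 1.52 and Ciita at 24.3 ± 5.06. In blood H2-Ob led this group at 94.7 ± 16.3 CPM per kb, above H2-DMa at 51.3 ± 6.73. The restraining chains thus ranged from the least abundant members in sorted cells and tumor to levels near or above those of H2-DMa and H2-DMb1 in lymph and blood. H2-DMb2, the other H2-DM beta chain gene and not a member, was above both H2-O chains there. It stood at 131 ± 24.4 CPM per kb in lymph and 148 ± 15.9 in blood.

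**Figure D1:**
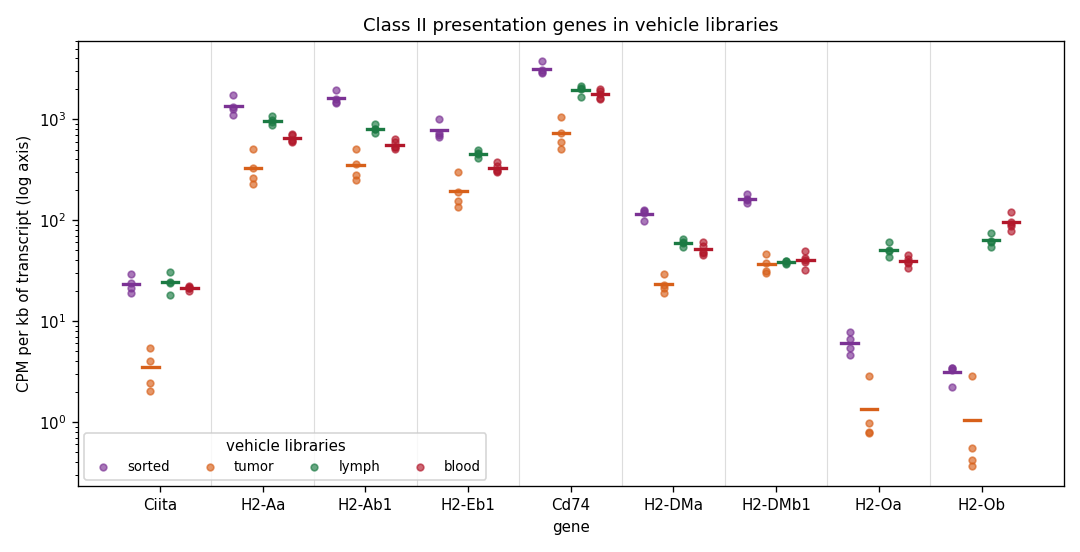
Levels of the 9 genes in vehicle libraries, as CPM per kb of transcript on a log axis, for sorted cells, tumor, lymph and blood; points are libraries and bars are means. H2-Ob lies at a mean of 3.10 in sorted cells and 1.04 in tumor, and at 63.2 in lymph and 94.7 in blood.

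All 9 members were higher in sorted cells than in whole tumor under vehicle, where 24% of 21410 genes were called higher (limma on voom weights, Benjamini-Hochberg over all genes, called at an adjusted p under 0.05). By their titles, blood, lymph and tumor libraries of a treatment that share a number may come from the same animal, and this fit took them as independent. Deviations from the group means correlated between such libraries at -0.08 to 0.05 for blood and lymph, -0.04 to 0.03 for blood and tumor and -0.16 to 0.01 for lymph and tumor, over 12 pairs each. With the animal as a random block, the counts of members called in the 3 vehicle comparisons and the 6 interactions were the same. The members' median difference was 2.18 (log2), beside -0.26 over all genes tested. Ciita differed by 2.84 ± 0.35 (SE; adjusted p = 6.11e-09) and H2-DMa by 2.34 ± 0.28 (adjusted p = 4.27e-09). H2-Eb1, at 2.05 ± 0.37, had the smallest difference. Of 14 transcription factors of the class II genes, 11 were called higher, among them Irf8 (2.77), which works with PU.1 in myeloid cells, Spi1, which encodes PU.1 (2.01), and Rfx5 (1.10), a subunit of the X box complex. Of 11 trafficking and processing genes, 6 were called higher and 1 lower. Ifi30, a lysosomal thiol reductase, differed by 2.00 and Ctss, the protease that trims the invariant chain in antigen presenting cells, by 1.95, while the protease Ctsl was lower by 2.73 (log2 -2.73).

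Against lymph, 8 of 9 members were lower in tumor, where 29.5% of genes were called lower, with a median of -1.49 beside 0.03 over all genes. H2-Ob in tumor vehicle libraries was at 16.0, 3.04, 2.33 and 2.01 CPM, and in lymph at 302, 344, 426 and 347 CPM on the scale within each tissue. No tumor library came near the lymph libraries, and replicate 1 was the highest tumor. The difference was -6.45 ± 0.51 (log2, SE; adjusted p = 7.31e-14) for H2-Ob and -5.43 ± 0.44 (adjusted p = 9.47e-14) for H2-Oa. Without tumor vehicle replicate 1 these were -7.17 and -5.90.

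Ciita differed by -2.89 ± 0.29 between tumor and lymph, more than the classical chains, at -1.61 for H2-Aa, -1.30 for H2-Eb1 and -1.26 for H2-Ab1. H2-DMb1, at -0.10 ± 0.24 (adjusted p = 0.739), was the 1 member not called. All 12 B cell markers were called lower in tumor than in lymph, with a median of -7.39. Of 12 macrophage markers 10 were called higher, where 6935 of 21410 genes were called higher. The part of both lists in the members' differences was not tested. In bulk RNA, fewer cells of a type and less RNA per cell cannot be told apart. The transcription factor Pax5, which marks B cells, differed by -7.55, and Cd83, which keeps class II at the surface, by -3.57, whereas Lgmn, a lysosomal protease, was higher by 2.23.

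Blood and lymph were closer. H2-Ob was higher in blood by 0.58 ± 0.22 (adjusted p = 0.0184), 1 member where 29.4% of genes were called higher. H2-Aa (-0.57), H2-Ab1 (-0.53) and H2-Eb1 (-0.48) were lower, 3 members where 33.9% of genes were called lower. The members' median was -0.23, beside -0.10 over all genes. Ciita, at -0.17 ± 0.20, and Cd74, at -0.15 ± 0.21, were not called (adjusted p = 0.478 and 0.563). These 4 calls are fragile: without lymph vehicle replicate 4 there was 1, and without blood vehicle replicates 1, 3, 4 or 5, or lymph vehicle replicates 2 or 5, in turn, there were 2. Of the 12 B cell markers 7 were called higher in blood, with a median of 0.54.

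The same switch appears as ratios within a library, which do not depend on depth. The ratio of H2-Ob to H2-DMa per kb was 0.0272 ± 0.00661 in sorted vehicle cells (SD, n = 4), 1.05 ± 0.0653 in lymph (n = 4) and 1.87 ± 0.369 in blood (n = 5). H2-DMb2, a second H2-DM beta chain gene beside H2-DMb1, moved alike: its ratio to H2-DMb1 was 0.0887 ± 0.0122 in sorted cells, 3.41 ± 0.617 in lymph and 3.71 ± 0.63 in blood. H2-DMb1 and H2-DMb2 are near-identical copies whose reads may be split wrongly, so both are uncertain. In sorted ATOR-4066 replicate 9, the library rich in B cell markers, the ratios were 0.383 and 0.951, against highest vehicle values of 0.0351 and 0.0978.

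**Figure D2:**
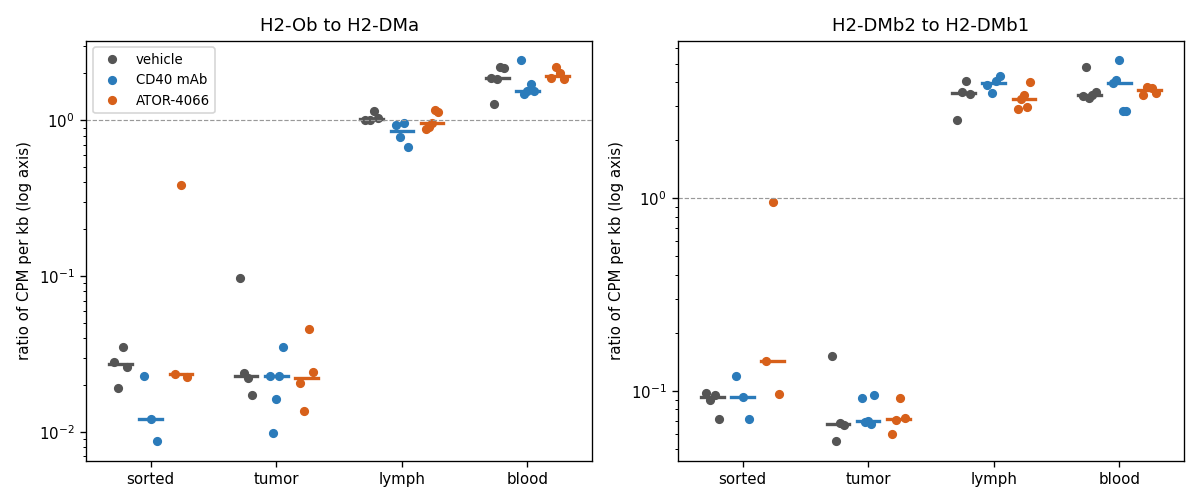
Ratios of H2-Ob to H2-DMa and of H2-DMb2 to H2-DMb1 (CPM per kb, log axis) in each library of the 4 tissues, coloured by treatment; bars are medians and the dashed line marks equal levels. Sorted and tumor libraries lie below the line in both panels, and sorted ATOR-4066 replicate 9 lies highest among them at 0.383 and 0.951.

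The neighbouring locus genes gave the same contrast. H2-Eb2, a beta chain gene next to H2-Eb1, differed between tumor and lymph by -6.82 (log2), and H2-DMb2 by -5.50. H2-Ea, the partner of H2-Eb1 that some laboratory strains do not transcribe, had 0 counts in 41 of 50 libraries and at most 5 in any.

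In sorted cells the question was whether either antibody changed the class II genes of tumor leukocytes. Under ATOR-4066, 7 of 9 members had lower fitted values than under vehicle, and Ciita alone was called, 1 member where 5.11% of 16667 genes were called lower (edgeR's quasi-likelihood test, adjusted over all genes). The median over the members was -0.86, beside -0.02 over all genes. Without replicate 9 the median was -0.59, all 9 fitted values were negative and none was called.

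Ciita stood at 237, 264, 213 and 325 CPM in the vehicle libraries, at 166, 300 and 235 under CD40 mAb, and at 167, 78.5 and 145 under ATOR-4066. The 3 ATOR-4066 libraries lay below all 4 vehicle libraries, as they did for 6 of the 9 members and for 14.1% of all genes tested, and the CD40 mAb libraries overlapped both. The fitted change was -1.0 ± 0.28 (log2, SE), with an adjusted p of 0.0442. Without replicate 9 it was -0.74 with an adjusted p of 0.0955. The call also ended on leaving out, in turn, any of the 4 vehicle libraries, ATOR-4066 replicate 6 or 10, or CD40 mAb replicate 10.

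H2-Aa was at 2730, 2610, 2290 and 3630 CPM under vehicle, 2810, 4930 and 3700 under CD40 mAb, and 2470, 660 and 1790 under ATOR-4066. The library at 660 was replicate 9, and replicate 6 lay within the vehicle range. The fitted change under ATOR-4066 was -0.78 ± 0.39 (adjusted p = 0.212). H2-Ab1, its partner chain, went from 3240 to 4360 CPM under vehicle to 2730, 693 and 2010 under ATOR-4066, with no overlap. Its fitted change was -0.99 ± 0.40 (adjusted p = 0.131).

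Cd74 was at 8020, 7590, 7480 and 9930 CPM under vehicle and 6480, 2080 and 5270 under ATOR-4066. H2-DMb1 was at 413, 413, 390 and 478 under vehicle and 282, 65.7 and 226 under ATOR-4066, and H2-DMa at 300 to 389 under vehicle and 251, 90.8 and 245 under ATOR-4066. The groups did not overlap in any of these 3 genes, nor in H2-Eb1, and replicate 9 was lowest each time. None was called: H2-DMb1 had a fitted change of -1.15 ± 0.41 (adjusted p = 0.0955), H2-DMa -0.86 ± 0.33 (0.111), Cd74 -0.84 ± 0.35 (0.144) and H2-Eb1 -0.88 ± 0.39 (0.161). DESeq2 called 3 members lower, namely Ciita, H2-DMa and H2-DMb1, where it called 10.7% of genes lower.

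The H2-O chains ran against this order in 1 library. H2-Ob was at 17, 11, 17 and 16.4 CPM under vehicle and 9.64, 56.0 and 8.88 under ATOR-4066, the 56.0 being replicate 9. H2-Oa was at 15.5, 10.8, 13.3 and 9.38 under vehicle and 9.30, 23.3 and 6.99 under ATOR-4066. The highest and lowest of the 7 values of each gene were both ATOR-4066 libraries. The fitted changes were 0.69 ± 0.56 for H2-Ob (adjusted p = 0.46) and 0.11 ± 0.43 for H2-Oa (adjusted p = 0.898). Without replicate 9 they were -0.73 (adjusted p = 0.113) and -0.59 (adjusted p = 0.374), so the sign of both rested on that library.

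**Figure D3:**
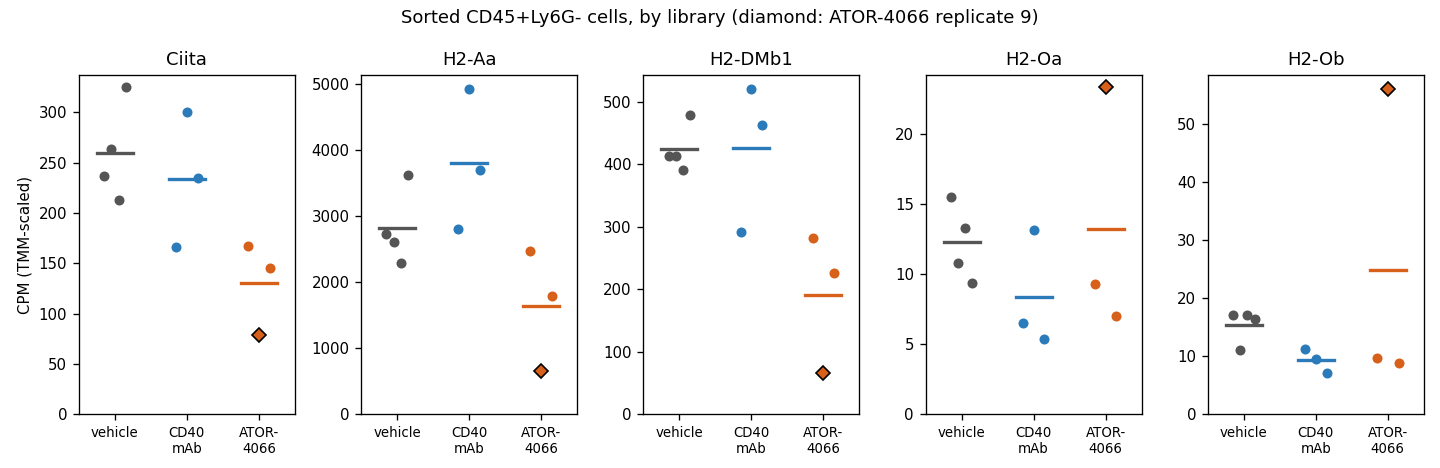
CPM of Ciita, H2-Aa, H2-DMb1, H2-Oa and H2-Ob in each sorted library by treatment; points are libraries, bars are means and the diamond is ATOR-4066 replicate 9. That library is lowest in Ciita (78.5), H2-Aa (660) and H2-DMb1 (65.7) and highest in H2-Oa (23.3) and H2-Ob (56.0).

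Lists of markers of cells that carry class II moved in different directions in the same libraries. Over all genes tested there, 1126 of 16667 were called higher under ATOR-4066 than under vehicle and 851 lower. Of 12 macrophage markers 4 were called lower under ATOR-4066 and none higher, among them C1qa (-2.18), a complement component, and Trem2 (-2.08), a lipid receptor. Their summed level was 8040 to 10400 CPM under vehicle, 5860 to 19300 under CD40 mAb, and 3850, 766 and 4440 under ATOR-4066. Of 12 conventional dendritic cell markers 4 were called lower, including Xcr1 (-2.88) and Clec9a (-2.52), which mark the cross-presenting type, and Itgax (-1.08). The summed dendritic cell level was 1280 to 1370 CPM under vehicle and 1250, 489 and 1240 under ATOR-4066. Of 9 mature dendritic cell markers 2 were called higher and none lower, Ccr7 (1.47), a chemokine receptor, and Cd80 (1.03), a costimulatory ligand. Their summed level was 391 to 553 CPM under vehicle and 960, 440 and 814 under ATOR-4066, where replicate 9, at 440, lay inside the vehicle range. Monocyte markers summed to 5960 to 7110 CPM under vehicle and 2080 to 4630 under ATOR-4066. Plasmacytoid dendritic cell markers summed to 398 to 576 CPM under vehicle and 175 to 361 under ATOR-4066. Both of these sums were lower in all ATOR-4066 libraries than in all vehicle libraries.

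T cell markers were called higher 10 of 10, with sums of 820 to 1270 CPM under vehicle and 3130, 5120 and 2360 under ATOR-4066. Of the 12 B cell markers all 12 fitted values were positive and 1, Ms4a1 (3.70), was called. Their summed level was 151 to 192 CPM under vehicle and 192, 747 and 174 under ATOR-4066, the 747 being replicate 9. No defining B cell marker was at 0 in any sorted library, with Cd79a at 1.48 to 3.44 CPM under vehicle and 3.75 to 110 under ATOR-4066. The part of these cell types in the members' values was not tested.

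The other class II pathway lists were mixed, beside 1126 of 16667 genes called higher in this comparison. Of the 14 transcription factors 4 were called higher under ATOR-4066 and none lower: Prdm1 (1.09), which encodes Blimp-1, a repressor of Ciita, Irf4 (1.61), the NF-Y subunit Nfyb (0.62), and Pax5 (4.58). Pax5 marks B cells, whose summed markers were highest in replicate 9. Of the 11 trafficking genes 1, the protease Ctsd (0.72), was called higher, while the median of the list was -0.64. Of 16 interferon-gamma pathway genes 1, Ifng itself (1.48), was called higher, with a list median of -0.50. Interferon-gamma is a known inducer of Ciita. H2-Eb2 was at 2.28, 2.64, 1.76 and 2.37 CPM under vehicle, 10.9, 5.74 and 3.59 under CD40 mAb, and 5.62, 9.07 and 4.58 under ATOR-4066. All 6 antibody libraries lay above all 4 vehicle libraries, and its change under ATOR-4066 was 1.51 ± 0.39 (adjusted p = 0.0339), or 1.17 (adjusted p = 0.115) without replicate 9.

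Under CD40 mAb no member was called in sorted cells by edgeR, DESeq2 or limma, where 1.09% of genes were called, and none had an unadjusted p under 0.05. The fitted changes ran from -0.73 for H2-Ob to 0.44 for H2-Aa, with a median of 0.20 beside -0.02 over all genes. Ciita and H2-Aa parted in level: their ratio per kb was 0.0174 ± 0.00118 under vehicle (SD, n = 4), 0.0115 ± 0.000405 under CD40 mAb (n = 3) and 0.0167 ± 0.005 under ATOR-4066 (n = 3). The CD40 mAb ratios, from 0.0111 to 0.0119, lay below all others in sorted cells, where the lowest vehicle ratio was 0.0163 and the lowest ATOR-4066 ratio 0.0127. This ratio was picked out after its values were seen and was not tested. Among the pathway lists, Ctsd was called higher by 1.11.

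Comparing the antibodies directly in sorted cells, edgeR called no member, where 8.23% of genes were called, although 8 of 9 had an unadjusted p under 0.05, as did 27.1% of all genes, and DESeq2 called 7 lower, where it called 8.41% of genes lower. H2-Eb1 (-1.31 ± 0.41, adjusted p = 0.0752), Cd74 (-1.23 ± 0.37, 0.0675), H2-Aa (-1.22 ± 0.41, 0.091), H2-DMa (-1.14 ± 0.34, 0.0669) and the other 2 with non-overlapping groups, H2-Ab1 and H2-DMb1, were lower in all 3 ATOR-4066 libraries than in all 3 CD40 mAb libraries, as were 13.6% of all genes tested. The members' median was -1.15, beside 0.01 over all genes. Without ATOR-4066 replicate 9 the median was -0.81, none was called, and the fitted H2-Ob value went from 1.42 to -0.01. Without ATOR-4066 replicate 10, edgeR called 1 member. Of the trafficking genes Marchf8, a ubiquitin ligase that removes class II from the surface, was called lower (-1.56).

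**Figure D4:**
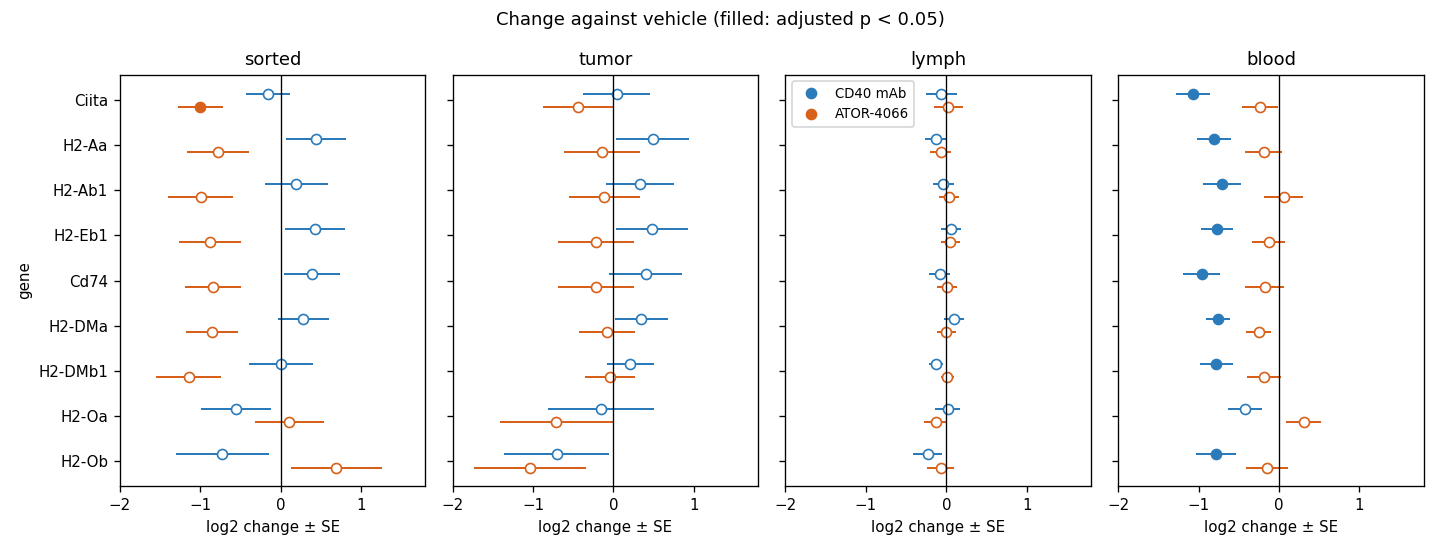
Fitted log2 change against vehicle (± SE) of the 9 genes under CD40 mAb and ATOR-4066 in the 4 tissues; filled points have an adjusted p under 0.05. Filled points are Ciita under ATOR-4066 in sorted cells (-1.0) and 8 genes under CD40 mAb in blood, from -0.71 to -1.07.

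In blood, on TMM-scaled levels, the members fell under CD40 mAb and not detectably under ATOR-4066. The scaling itself differed between the groups. Cd74 counts in replicate 4 were 29677 of 35.1 M under vehicle and 15961 of 40.7 M under ATOR-4066. Replicate 4 of CD40 mAb had 1632 of 38.5 M. After scaling these were 360, 407 and 135 CPM. For this replicate number, Cd74 relative to the total was lower under ATOR-4066 than under vehicle before scaling and higher after it. Haemoglobin took 78.1 to 88.2% of counts under ATOR-4066 and 69.8 to 76.0% under vehicle. The sizes of the changes, and their direction, can depend on this scaling, and levels per unscaled total were not tested. Under CD40 mAb 8 of 9 members were lower than under vehicle, where 12.4% of 12184 genes were called lower, with a median of -0.78 beside -0.05 over all genes. H2-Oa, at -0.42 ± 0.22 (adjusted p = 0.139), was the exception. Without CD40 mAb replicate 1 all 9 were called and the median was -1.02.

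Ciita was at 19.8, 18.7, 21.1, 20.5 and 19.9 CPM in the vehicle libraries, and at 16.6, 9.59, 8.36, 5.71 and 6.99 under CD40 mAb. All 5 treated libraries lay below all 5 vehicle libraries, as they did for 4 of the 9 members and for 7.48% of all genes tested, with replicate 1, at 16.6, nearest to them. The change was -1.07 ± 0.21 (log2, SE; adjusted p = 0.0012), or -1.38 without replicate 1.

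Cd74 was at 350, 434, 393, 360 and 418 CPM under vehicle and 317, 186, 195, 135 and 170 under CD40 mAb, again with no overlap. It fell by 0.96 ± 0.23 on the log2 scale (log2 -0.96, adjusted p = 0.00466). H2-DMa went from 12.5, 15.8, 11.7, 12.2 and 14.4 to 11.2, 7.05, 8.0, 6.37 and 6.44, and H2-Eb1 also did not overlap. H2-DMa had the lowest adjusted p of the members, 0.000957, at -0.76 ± 0.15.

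H2-Aa was at 108, 126, 108, 105 and 124 CPM under vehicle and 109, 60.9, 57.0, 47.6 and 52.4 under CD40 mAb. Here replicate 1, at 109, lay inside the vehicle range and the other 4 below it. H2-Ob was at 37.8, 32.5, 40.9, 36.3 and 50.9 under vehicle and 44.3, 16.9, 19.9, 15.9 and 17.8 under CD40 mAb, with the same library inside the range. H2-Oa was at 6.41, 7.74, 6.60, 5.76 and 6.99 under vehicle and 8.82, 3.55, 4.0, 4.47 and 3.71 under CD40 mAb, so replicate 1 was the highest of all 10 and the other 4 the lowest.

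**Figure D5:**
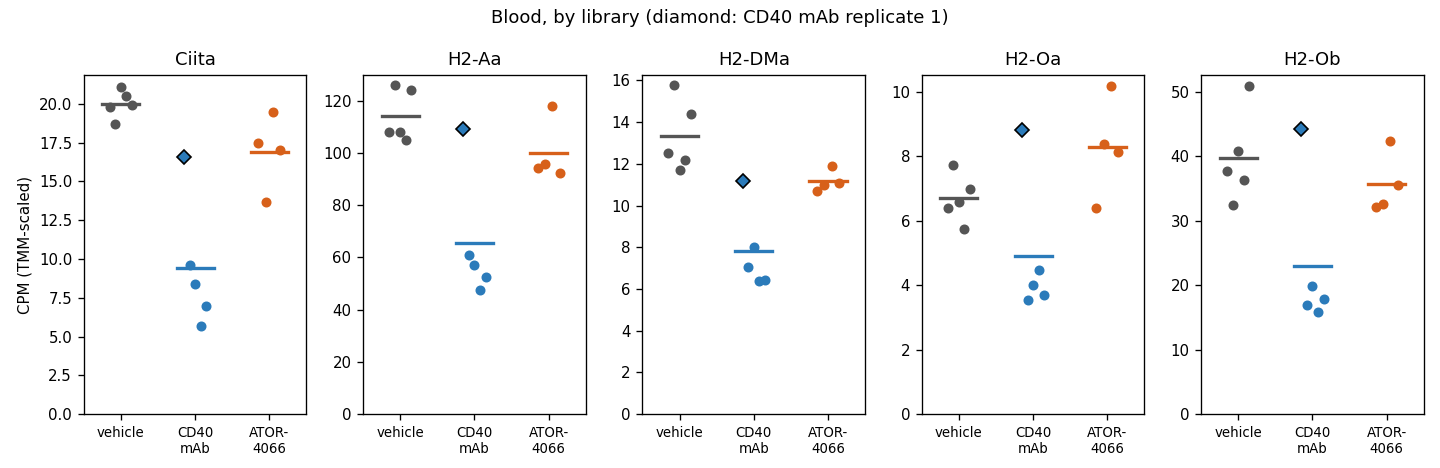
CPM of Ciita, H2-Aa, H2-DMa, H2-Oa and H2-Ob in each blood library by treatment; points are libraries, bars are means and the diamond is CD40 mAb replicate 1. The other 4 CD40 mAb libraries lie below all vehicle libraries in each panel, and replicate 1 lies below them all in Ciita (16.6) and H2-DMa (11.2).

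B cell markers fell in the same blood libraries. Of 12 markers 11 were called lower under CD40 mAb, with a median of -0.89, including Cd79b (-0.99), a B cell receptor signalling chain, and Fcer2a (-1.42), the low-affinity IgE receptor. Their summed level was 374 to 461 CPM under vehicle and 378, 188, 216, 147 and 171 under CD40 mAb in replicates 1 to 5. Replicate 1 was thus the highest of its group in the marker sum, as it was in all 9 members, though it lay below every vehicle library in 4 of them. Neutrophil markers were called higher 8 of 8, where 2710 of 12184 genes were called higher, and of 10 T cell markers none was called. Haemoglobin took 69.8 to 76.0% of counts under vehicle and 77.5 to 81.2% under CD40 mAb, and 8 members were also called with haemoglobin genes left out of the library sizes. The part of B cells in the members' fall was not tested.

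Interferon-gamma pathway genes went the other way from the class II genes in blood. Of 14 tested, 11 were called higher under CD40 mAb, with a median of 1.18. Over all genes tested, 2710 of 12184 were called higher and 1509 lower. Gbp2, a guanylate-binding GTPase, was higher by 4.87, Igtp, a GTPase of the same response, by 3.11, and Cd274, which encodes PD-L1, by 1.73. Of the 14 class II transcription factors 3 were called higher and 5 lower, among them Pax5 (-1.03), Irf8 (-0.53) and the NF-Y subunit Nfya (-0.46). Of the 11 trafficking genes 4 were called higher, namely Marchf8 (2.58), Ctsb (2.38), Lgmn (2.18) and Ctsd (1.11), and 2 lower. Both further locus genes fell, H2-DMb2 by 0.80 (log2 -0.80) and H2-Eb2 by 0.80 (log2 -0.80).

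ATOR-4066 gave no calls of this kind in blood. No member was called against vehicle by edgeR, DESeq2 or limma, where 0.435% of genes were called, and none had an unadjusted p under 0.05. The fitted changes ran from -0.26 for H2-DMa to 0.30 for H2-Oa, with a median of -0.18 beside -0.01. Ciita was at 17.5, 13.7, 19.5 and 17 CPM, with 3 of the 4 libraries below every vehicle library and replicate 4, at 19.5, within their range. For Cd74, H2-Aa, H2-Eb1 and H2-DMa, 3 of the 4 libraries also lay below every vehicle library. For H2-Oa 3 lay above. The share of all genes with 3 of 4 libraries below was not counted.

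Set directly against CD40 mAb, 6 of 9 members were higher under ATOR-4066, where 2.31% of genes were called higher, with a median of 0.64 beside 0.01 over all genes. They were Ciita (0.83 ± 0.22, adjusted p = 0.0208), Cd74 (0.78, 0.0435), H2-Ab1 (0.77, 0.0495), H2-Oa (0.73, 0.0455), H2-Eb1 (0.64, 0.0487) and H2-DMa (0.50, 0.0418). H2-Aa (0.61, 0.0858), H2-Ob (0.63, 0.13) and H2-DMb1 (0.60, 0.0828) did not pass. Without CD40 mAb replicate 1 all 9 were called, with a median of 1.01. Leaving out any other blood library gave 0 to 2 calls, with 0 without CD40 mAb replicate 5, ATOR-4066 replicate 4 or ATOR-4066 replicate 5, and 5 of the 6 adjusted p-values lay between 0.0418 and 0.0495. B cell markers were called higher 4 of 12 in this comparison, and their sums were 310 to 415 CPM under ATOR-4066.

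In whole tumor neither antibody moved a member past the test. Against vehicle, ATOR-4066 gave fitted changes from -1.04 (H2-Ob) to -0.04 (H2-DMb1), with adjusted p-values from 0.374 to 0.948, where 1.32% of 18454 genes were called. The median was -0.22, beside 0.02 over all genes. No member was called by DESeq2 or limma either, and none had an unadjusted p under 0.05. Under CD40 mAb the changes ran from -0.71 (H2-Ob) to 0.49 (H2-Aa), where 0% of genes were called by edgeR, with 2205 at an unadjusted p under 0.05 and 30 called by DESeq2. ATOR-4066 against CD40 mAb gave -0.70 to -0.25, where 0.0325% of genes were called. In both of these comparisons edgeR, DESeq2 and limma called 0 members, and none had an unadjusted p under 0.05.

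The spread within a tumor group exceeded these differences. Ciita was at 68.3, 50, 30.8 and 24.9 CPM under vehicle, 31.5, 38.6, 42.4, 23.2 and 87.8 under CD40 mAb, and 43.9, 45, 19.1 and 20.7 under ATOR-4066. H2-Aa was at 1190, 768, 541 and 604 under vehicle, 701, 804, 841, 451 and 2640 under CD40 mAb, and 763, 924, 468 and 654 under ATOR-4066. All 3 groups overlapped in both genes, and the highest library of all 13 was CD40 mAb replicate 5. Cd74 in that library was at 7060 CPM, against 1150 to 2130 in the other CD40 mAb tumors.

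The signs in tumor rested on single libraries. Without vehicle replicate 1 the median for ATOR-4066 was 0.07 and 7 of 9 fitted values were positive. Without CD40 mAb replicate 5 the median for CD40 mAb against vehicle went from 0.33 to -0.25 with 0 of 9 positive, and that for ATOR-4066 against CD40 mAb from -0.47 to 0.07. No direction can be given for the members in tumor. All 11 trafficking genes had positive fitted values under ATOR-4066 (median 0.50) and none was called; of the 16 interferon-gamma genes 1, Cd274 (2.22), was called higher.

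In lymph the members were the most even of the 4 tissues. ATOR-4066 gave fitted changes from -0.13 (H2-Oa) to 0.05 (H2-Eb1), where 0% of 18671 genes were called by edgeR, with 2954 at an unadjusted p under 0.05 and 484 called by DESeq2. CD40 mAb gave -0.23 (H2-Ob) to 0.10 (H2-DMa), where 0.0643% of genes were called, and ATOR-4066 against CD40 mAb gave -0.15 to 0.17, where 0.0161% were called. No member was called by edgeR, DESeq2 or limma in these 3 comparisons, and none had an unadjusted p under 0.05. The standard errors, from 0.08 for H2-DMb1 to 0.19 for Ciita against vehicle, were gene by gene the smallest of the 4 tissues.

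Library values show the same. Ciita was at 227, 302, 392 and 309 CPM under vehicle, 316, 289, 251 and 322 under CD40 mAb, and 224, 295, 436, 332 and 279 under ATOR-4066. H2-Aa was at 2020, 2310, 2590 and 2210, then 2430, 1970, 1800 and 2160, then 1650, 2250, 2600, 2400 and 1960. The groups overlapped in all 9 members. Summed B cell markers were 3090 to 4980 CPM under vehicle, 3210 to 4520 under CD40 mAb and 2880 to 5250 under ATOR-4066.

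Whether an antibody's effect differed between tissues was tested as an interaction in the fit over all 50 libraries. For CD40 mAb, lymph minus blood, 4 members were called, where 8.04% of genes were called higher: Cd74 (1.05 ± 0.30, adjusted p = 0.0109), H2-Eb1 (0.95 ± 0.30, 0.0214), Ciita (1.13 ± 0.37, 0.0239) and H2-DMa (0.93 ± 0.31, 0.0273). The median over the members was 0.83, beside -0.28 over all genes. H2-Aa (0.82) and H2-Ab1 (0.83) just missed, at an adjusted p of 0.0511 each. Without blood CD40 mAb replicate 1, 8 were called; without blood CD40 mAb replicate 4 or 5 in turn, 2 were, and the count fell to 0 without sample weights or without a low-count filter.

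For ATOR-4066, sorted minus tumor, H2-DMb1 was called (-1.32 ± 0.43, adjusted p = 0.0408), 1 member where 5.14% of genes were called lower, with a members' median of -0.82 beside -0.06. Without sorted ATOR-4066 replicate 9 it was -0.66 with an adjusted p of 0.359, and the call also ended without any one of the 4 sorted vehicle libraries, tumor vehicle replicates 2, 4 or 5, or tumor ATOR-4066 replicates 1 or 2. No member was called in the other 4 interactions by limma, with or without sample weights, and none had an unadjusted p under 0.05. The shares of genes called there were 8.79% for ATOR-4066 in tumor minus lymph, 1.03% for ATOR-4066 in lymph minus blood, 0.392% for CD40 mAb in sorted minus tumor and 5.71% for CD40 mAb in tumor minus lymph.

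How closely the members moved together differed by tissue. The correlation of log2 CPM with H2-Aa over the 10 sorted libraries was 0.91 to 1.00 for Ciita, H2-Ab1, H2-Eb1, Cd74, H2-DMa and H2-DMb1, but -0.52 for H2-Oa and -0.77 for H2-Ob. Over 13 tumor libraries the H2-O chains were at 0.69 and 0.63 and the others at 0.89 to 1.00. In lymph (13 libraries) all 8 lay between 0.71 and 0.94, and in blood (14 libraries) between 0.84 and 0.99. With treatment means taken out, they lay between 0.83 and 0.97 in lymph and between 0.75 and 0.99 in blood. The lower ends of these 2 tissues thus changed order. In sorted cells H2-Oa was then at -0.51 and H2-Ob at -0.82. These are descriptions over libraries that share treatments and cell makeup. All sorted values, high and negative, include ATOR-4066 replicate 9, where H2-Aa was at 660 CPM. All tumor values include CD40 mAb replicate 5, where H2-Aa was at 2640 CPM. Correlations without these libraries were not computed.

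The genes most like a member, by Pearson's r among expressed genes, also differed by tissue. The same libraries that stood apart are included here. In blood H2-Aa was most like Cd79a (r = 0.99), H2-DMb2 (0.99) and Cxcr5 (0.98), of which Cd79a and Cxcr5 are expressed by B cells. Blood Ciita was most like Hvcn1, Chst3 and Ralgps2 (each 0.97 to 0.98, 14 libraries). In lymph Ciita was most like Pik3c2b (0.96), Cd37 (0.96) and Cnr2 (0.95), and H2-Aa like Snx8, Srpk3 and Dok3 (each 0.93 to 0.94). In tumor H2-Aa was most like Cyp27a1 (0.95), a sterol hydroxylase, Cd7 (0.93) and Trem2 (0.92), and Ciita like Nckipsd (0.90), Camk1d (0.87) and Tacc1 (0.84). In sorted cells Ciita was most like Bahcc1, Cyp27a1 and Tmem67 (each 0.97), and H2-Aa like Aldh6a1 (0.97), Tmem86a (0.97) and Hfe (0.96).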

How the data were processed

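PolyA RNA was sequenced with a stranded mRNA kit, per the labels' protocols. STAR (given as version 5.1) and GRCm38 are named in the submitters' processing notes, with no settings. The authors deposited estimated counts per gene, merged from salmon per the name of the table; 11% of cells were fractional and were rounded to whole numbers.

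The 9 genes, the other gene lists and the left-out libraries were chosen with earlier results of these data known. Groups come from the labels; all libraries of a tissue entered one fit. Within a tissue, edgeR 4.0.16 (R 4.3.3) was run with TMM scaling, its low-count filter (count minimum 10, total 15) and the robust quasi-likelihood test for 12 comparisons. Across tissues, voom weights per tissue and limma 3.58.1 gave 3 vehicle comparisons and 6 interactions. P-values were adjusted over all genes tested (Benjamini-Hochberg) and called under 0.05; SE in edgeR is the change divided by the root of its F. CPM uses TMM-scaled totals within a tissue, and over all 50 libraries for levels per kb (longest principal transcript of GENCODE vM21). The fits were run on simulated counts, with a spread common to all genes and planted changes larger than any antibody change of a member. Recovery of smaller changes was not tested. No replicate pair was a duplicate: at most 0.262% of compared genes had equal counts. From each list, the called genes of smallest p (at most 4) are named; for Ciita and H2-Aa the 3 genes of largest r. Alternatives were DESeq2 1.42.0, voom within tissues, other scaling, filters and sample sets, a replicate block and leaving out each library.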

Additional observations from a re-analysis of the deposited data

Results flagged for a closer look

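In 90 groups of 4 or 5 libraries (the 9 genes in the 10 combinations of treatment and tissue with at least 4), 6 had a highest or lowest library far from the rest, where chance alone picks out about 1 in 20 groups. Of the 6, 3 were the same library, blood CD40 mAb replicate 1, the highest of its group in H2-Oa (8.82 CPM), H2-Ob (44.3 CPM) and H2-Eb1 (78.1 CPM); its B cell markers summed to 378 CPM, against 147 to 216 in the other 4. Tumor vehicle replicate 1 was far above its group in H2-Oa (6.50 CPM), beside B cell markers at 215 CPM. Sorted vehicle replicate 7 was the low library of its group in H2-Ob (11 CPM), and blood ATOR-4066 replicate 4 the high one in H2-Aa (118 CPM). Neither the markers' part nor depth's part in these values was tested.

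In 5 cases an effect differed between tissues by a test of the difference itself. The CD40 mAb effect was higher in lymph than in blood for Ciita (1.13, log2), Cd74 (1.05), H2-Eb1 (0.95) and H2-DMa (0.93). The ATOR-4066 effect on H2-DMb1 was lower in sorted cells than in tumor (log2 -1.32), and -0.66 without sorted ATOR-4066 replicate 9.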

How the results depend on the processing

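Of 6534 member values recomputed under the alternatives, none reversed a called direction, 152 lost a call and 51 gained one. For ATOR-4066 against vehicle in sorted cells, the members called went from 1 to 0 without the low-count filter, with only the 2 groups compared and with the replicate block, and to 3 with DESeq2; leaving out each library gave 0 to 1. For ATOR-4066 against CD40 mAb in sorted cells DESeq2 called 7 and leave-one-out fits 0 to 1. In blood, ATOR-4066 against CD40 mAb went from 6 to 0 with only the 2 groups compared and with the replicate block, and ranged from 0 to 9 on leaving out each library; CD40 mAb against vehicle ranged from 6 to 9. Vehicle blood against lymph went from 4 to 0 without sample weights and to 1 with both left-out libraries, and ranged from 1 to 5. The CD40 mAb interaction of lymph and blood went from 4 to 0 without sample weights and without a filter, and ranged from 2 to 8; the ATOR-4066 interaction of sorted cells and tumor ranged from 0 to 1. The other comparisons kept their counts of members called under every alternative run.

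Over all genes, calls moved more. For ATOR-4066 against vehicle in tumor they went from 243 to 4913 with voom, 2443 with DESeq2 and 0 with the replicate block; in sorted cells from 1977 to 4496, 3532 and 1090. For CD40 mAb against vehicle, DESeq2 gave 1527 against 182 in sorted cells and 1796 against 12 in lymph. In blood, ATOR-4066 against CD40 mAb went from 1593 to 2 with the block, and ATOR-4066 against vehicle from 53 to 449 with DESeq2. DESeq2's scaling factors moved the median of all genes in the CD40 mAb interaction of lymph and blood from -0.28 to -0.44, and the share of its calls that were higher from 34.4 to 17.1%; for ATOR-4066 the share went from 21.4 to 6.32%. Replicate numbers were not taken as pairs. Same-numbered libraries of a tissue correlated at -0.22 to 0.14 in blood, -0.39 to 0.31 in lymph, -0.06 to 0.11 in sorted cells and -0.34 to 0.36 in tumor. Libraries of other numbers correlated at -0.22 to 0.31, -0.40 to 0.44, -0.18 to 0.19 and -0.41 to 0.43 in that order. With 8 to 13 same-numbered pairs per tissue, these values cannot show that the numbers carry no pairing. Groups of 3 to 5 libraries, unequal cell makeup, and haemoglobin in blood limit every statement above, and the cause of each lost call was not tested.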
